A study of Homo sapiens with 9 samples.

Results

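The AP-1 family genes are FOS, FOSB, FOSL1, FOSL2, JUN, JUNB, JUND, ATF3, BATF and BATF3, 10 of 20090 protein-coding genes in the annotation used. Accessible chromatin at these genes was described from ATAC-seq peak lists of K562 cells, an established human line from a chronic myeloid leukaemia in blast crisis. ATAC-seq marks open DNA with a transposase that adds adapters where it can reach, here in 50000 cells per replicate. The 3 genotypes were parental cells labelled wild type, with no mutation in STAG2, a line labelled STAG2 R614* +/- (heterozygous) and a line labelled STAG2 R614* -/- (homozygous). STAG2 encodes a subunit of the cohesin complex, and, by the sample titles, each genotype was 1 line with 3 replicate libraries. Homozygous cells grew attached and were detached with trypsin, per the labels, so genotype, line and manner of growth change together and cannot be told apart. Replicates were not stated to be separate cultures, so the spread between them may be technical.

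The 10 genes were selected on a measured value, the rise of sites with an AP-1 motif in the homozygous line. In 500 bp around the midpoint, the motif lay in 41.6% of regions specific to the homozygous line (all 3 of its libraries and no other), in 12.0% of those missing only from it and in 13.2% of those held by all 9 libraries. These values chose the family and are given as a description, and contrasts with the homozygous line at the genes themselves are likewise described without a test. A peak belonged to a gene when its centre fell inside the gene or at most 50 kb outside it, in GRCh37. Because the lists differed in length, the 50000 peaks of each library with the highest −log10 p, called strong peaks below, were used. Peaks of the 9 libraries that overlapped were merged into regions, of which 93 of 105878 belonged to the 10 genes. A peak's percentile is its place among the 50000 strong peaks of its own library, with 100 for the strongest.

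AP-1 is a family of dimeric transcription factors that bind DNA through a basic leucine zipper. FOS proteins pair with JUN proteins, whereas JUN proteins can also pair with each other, and ATF3, BATF and BATF3 join the same network as further partners. The dimers bind the AP-1 motif TGACTCA, and some bind the closely related cyclic AMP response element (CRE) TGACGTCA. FOS, FOSB, JUNB and ATF3 are immediate-early genes that growth factors and stress switch on within minutes. Serum response factor, which binds the CArG box, and CRE-binding factors are textbook regulators of FOS.

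The upstream sequences of FOS, FOSB and JUND are shown because they hold the CArG box and CRE letters that were searched at promoters. FOSB is included also because its own promoter was the only one of the 11 family promoter regions that separated the homozygous from all other libraries. Each stretch has 300 bases, ends 40 bases before the outermost annotated start of its gene and is written 5′ to 3′ on the strand of the gene, with motif matches in capitals. The FOS stretch is chr14:75745189-75745488 on the plus strand and holds a CArG box 312 to 303 bases upstream. The FOSB stretch is chr19:45970913-45971212 on the plus strand and holds a CRE 324 to 317 bases and a CArG box 273 to 264 bases upstream. The JUND stretch is chr19:18392473-18392772 on the minus strand and holds a CRE 200 to 193 bases upstream.
FOS: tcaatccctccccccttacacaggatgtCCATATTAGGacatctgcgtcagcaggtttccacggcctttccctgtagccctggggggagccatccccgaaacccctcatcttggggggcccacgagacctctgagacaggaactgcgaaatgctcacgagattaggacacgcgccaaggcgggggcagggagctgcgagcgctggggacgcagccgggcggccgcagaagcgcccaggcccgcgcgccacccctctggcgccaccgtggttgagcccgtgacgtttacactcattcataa
FOSB: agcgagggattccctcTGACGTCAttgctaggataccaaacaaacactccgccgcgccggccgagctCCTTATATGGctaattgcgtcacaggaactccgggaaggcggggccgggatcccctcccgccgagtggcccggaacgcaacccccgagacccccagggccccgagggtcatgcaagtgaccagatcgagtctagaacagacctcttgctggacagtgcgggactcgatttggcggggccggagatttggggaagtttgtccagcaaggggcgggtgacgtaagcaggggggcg
JUND: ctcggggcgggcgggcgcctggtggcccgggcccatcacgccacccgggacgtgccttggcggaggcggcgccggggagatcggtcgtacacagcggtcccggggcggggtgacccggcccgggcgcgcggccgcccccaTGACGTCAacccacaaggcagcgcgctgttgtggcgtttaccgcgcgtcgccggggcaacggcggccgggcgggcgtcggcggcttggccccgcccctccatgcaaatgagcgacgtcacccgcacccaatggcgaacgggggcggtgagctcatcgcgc

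A further 4 stretches show AP-1 motifs on either strand, in capitals, inside regions of the family's own loci. Each has 81 bases of the plus strand in GRCh37. The first lies between ATF3 and BATF3 at chr1:212840864-212840944, in a region found only in homozygous libraries. The second lies in ATF3 at chr1:212740556-212740636, in a region missing from the strong peaks of wild type replicates 1 and 2 alone. The third lies upstream of JUN at chr1:59289258-59289338 and is 1 of 2 such motifs in its region. The fourth lies in the first part of FOSL1 at chr11:65666820-65666900, in a region that reached the strong peaks of 1 library.
ATF3 to BATF3: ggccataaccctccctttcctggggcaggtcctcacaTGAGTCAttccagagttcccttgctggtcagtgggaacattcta
ATF3: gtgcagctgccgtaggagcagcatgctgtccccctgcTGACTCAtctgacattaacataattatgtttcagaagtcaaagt
JUN: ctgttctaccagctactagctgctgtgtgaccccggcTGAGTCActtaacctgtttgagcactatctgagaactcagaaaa
FOSL1: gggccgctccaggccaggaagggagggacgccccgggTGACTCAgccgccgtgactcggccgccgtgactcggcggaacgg

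The full lists held between 181579 and 319986 peaks and the read depth is unknown. The weakest of the 50000 strong peaks had a −log10 p of 4.95 to 6.73, depending on the library. It was 6.03, 6.44 and 6.41 in the wild type and 6.33, 5.82 and 6.01 in the heterozygous line. In homozygous replicates 1 to 3 it was 5.49, 4.95 and 6.73. Homozygous replicates 1 and 2 thus counted weaker peaks as strong than any other library did. Some lists shared many intervals, which bears on their independence. Wild type replicate 3 and heterozygous replicate 1 shared 46.0% of the shorter list's intervals at identical coordinates, and wild type replicates 1 and 2 shared 23.2%. At the AP-1 genes these shares were 38.8% (50 of 129 intervals) and 14.4% (16 of 111). Heterozygous replicates 2 and 3 shared 1.17%, and the other 33 of 36 pairs shared between 0.223% and 0.351%. Of 10 promoters of erythroleukaemia markers, 7 or 8 carried a strong peak in every library, among them TAL1, HBE1 and TFRC, whereas GATA1 and KLF1 had none within 1 kb of a start site in any library. B cell markers were at 0 of 3 in every library, T cell and monocyte markers at 0 or 1 of 3, fibroblast markers at 2 or 3 of 5 (COL1A1 and COL1A2 in all 9) and epithelial markers at 1 of 4, and these numbers overlapped between the genotypes.

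The 10 loci together carried more strong peaks in homozygous cells. Wild type replicates 1 to 3 had 48, 49 and 47, heterozygous replicates had 48, 44 and 42, and homozygous replicates had 61, 54 and 64. All 3 homozygous libraries were above the other 6, while wild type and heterozygous libraries overlapped. The means were 48.0 ± 1.0, 44.7 ± 3.06 and 59.7 ± 5.13 (SD, n = 3 each), a homozygous minus wild type difference of 11.7 peaks. The difference was −1.67 peaks, with overlapping libraries, when every peak with a −log10 q of at least 5 was used in place of a fixed number per library. List lengths under this q limit were unequal: 33165, 36879 and 38489 peaks in the wild type and 38473, 30923 and 32415 in the heterozygous line. Homozygous replicates 1 to 3 kept 25557, 21091 and 40308. Counts under the q limit were not scaled to list length. With full lists homozygous and wild type libraries also overlapped (141, 149 and 210 against 111, 135 and 143), and homozygous and heterozygous libraries overlapped under the q limit and with a 10 kb window. Heterozygous libraries were below wild type without overlap when lists that share intervals were counted once or heterozygous replicate 1 was left out, and above it without overlap with the 10 kb window. Peaks away from any start site gave most of it: distal sites numbered 26, 25 and 25 in the wild type, 26, 24 and 23 in the heterozygous line and 33, 28 and 39 in the homozygous line.

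The share of strong peaks on chromosome 19, where FOSB, JUNB and JUND lie, moved with the same contrast. It was 2.51% ± 0.0372 for the wild type line, 2.45% ± 0.034 for the heterozygous and 3.10% ± 0.0802 for the homozygous (SD over 3 libraries). FOSB, JUNB and JUND together had 16, 17 and 20 strong peaks in the wild type, 16, 16 and 12 in the heterozygous line and 24, 23 and 23 in the homozygous line. The other 7 genes had 32, 32 and 27 in the wild type, 32, 28 and 30 in the heterozygous line and 37, 31 and 41 in the homozygous line, and there homozygous replicate 2 lay below 2 wild type libraries. The part of the chromosome-wide share in these counts was not tested.

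Locus by locus, most of the 10 genes did not separate the genotypes. JUNB was 1 of 10 loci at which all homozygous libraries exceeded all wild type libraries, against 9.65% of 19774 protein-coding loci and 19.4% of 1466 loci on chromosome 19. None of the 10 was lower without overlap, against 7.3% of all loci and 0.682% on chromosome 19. Relative to heterozygous libraries, JUNB and JUND were higher without overlap, against 9.78% of 19790 loci and 23.3% of those on chromosome 19, and 0 were lower (7.53% of all loci, 1.77% on chromosome 19). JUND was the 1 locus at which heterozygous libraries were below wild type (1.88% of 19604 loci), and none was above (1.71%). These calls depended on the setting. No share over all loci was computed for the other settings, and leaving out libraries makes separation easier to reach. The counts of separated loci at those settings are thus no result about the family. Against wild type, JUNB was separated in 15 of 17 alternatives, but most of these only leave out libraries, which cannot end a separation. Among the others, it stayed separated with the 100000 strongest peaks, full lists, the first summit and windows of 10 kb and 100 kb. It was not with the 20000 strongest peaks, where FOSB was instead, nor under the q limit, where none was. FOSB joined JUNB with full lists, with a 10 kb window and without wild type replicate 3, ATF3 joined it with the 100000 strongest peaks and without homozygous replicate 2, JUND without wild type replicate 2 and BATF3 without homozygous replicate 3. With a 100 kb window 4 loci were separated, those of FOSB, JUNB, JUND and ATF3. Against heterozygous libraries the count rose to 5 without homozygous replicate 2 and, in both directions, to 4 without heterozygous replicate 2, and JUND was lost with the 20000 or 100000 strongest peaks, full lists, the q limit and the 10 kb window. The JUND call between heterozygous and wild type libraries was lost under those settings and with the 100 kb window. The number of loci separated there, in both directions, was 3 without wild type replicate 3 or heterozygous replicate 1 and 2 without wild type replicate 1 or heterozygous replicate 2.

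The median homozygous minus wild type difference was 0.833 peaks over the 10 loci and 0.333 peaks over all loci tested.

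**Figure D1:**
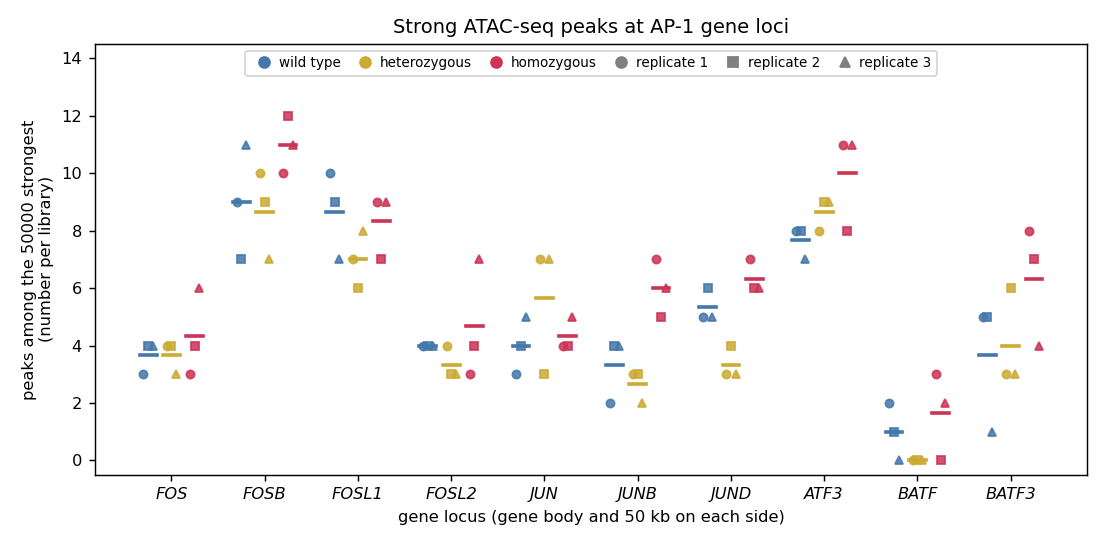
Number of strong peaks (among the 50000 strongest of each library) at each AP-1 gene locus, with 1 symbol per library and a bar at the mean of each genotype. At JUNB the homozygous libraries, with 5 to 7 peaks, lie above all others, and at most other genes the genotypes overlap.

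Among the FOS genes, FOS itself had few strong peaks and its promoter ranked no higher in the homozygous libraries than the highest wild type library. The locus, on chromosome 14 from 75745529 to 75748933 with its flanks, had 3, 4 and 4 strong peaks in the wild type, 4, 4 and 3 in the heterozygous line and 3, 4 and 6 in the homozygous line. The promoter region, from 75744595 to 75746221, had percentiles of 52.7, 40.9 and 42.1 in wild type and 69.5, 23.4 and 65.1 in heterozygous libraries. In homozygous libraries it was missing from replicate 1, at 3.19 in replicate 2 and at 44.2 in replicate 3, so homozygous and wild type libraries overlapped. Distal sites on either side of FOS ranked above its promoter in every library. The region 19709 bp upstream, from 75725205 to 75726435, had percentiles of 90.5, 90.2 and 73.2 in the wild type, 75.7, 93.1 and 96.3 in the heterozygous line and 88.8, 99.2 and 95.9 in the homozygous line. A region downstream of the gene, from 75760443 to 75761543, which holds a CArG box, ranged from 73.5 to 92.3 over the 9 libraries. Both were thus strong in all libraries, with overlapping genotypes.

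FOSB, a close relative of FOS, had a promoter that entered the strong peaks only in homozygous libraries. The region, on chromosome 19 from 45970570 to 45971463 with its midpoint 236 bp upstream of the FOSB start, had percentiles of 54.9, 42.7 and 37.9 in homozygous replicates 1 to 3 and was missing from the strong peaks of the other 6. All 9 full lists held a peak there. Its fold enrichment over the local background, as given by the authors' caller, was 4.0, 3.61 and 4.07 in the wild type, 3.76, 3.33 and 3.82 in the heterozygous line and 5.11, 4.52 and 4.75 in the homozygous line, so the difference is one of rank and height. This is the stretch whose CRE and CArG box are printed above. A second FOSB region, from 45972069 to 45973386 and centred 1475 bp inside the gene near internal start sites, was strong in all 9 libraries, at 50, 48.1 and 45.9 in the wild type, 47.6, 21.4 and 47.5 in the heterozygous line and 75, 33.6 and 66.3 in the homozygous line. Its genotypes overlapped through homozygous replicate 2, which was low.

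The flanks of FOSB are dense with other genes, and 8 of its 17 regions lay at promoters of neighbours. A distal region within ERCC1, a DNA repair gene, from 45947359 to 45947978, was missing from the strong peaks of all heterozygous libraries. It had percentiles of 77.0, 87.6 and 1.75 in homozygous libraries and 33.2 and 45.1 in wild type replicates 1 and 2, and it was missing in wild type replicate 3. The distal region of the FOSB locus with the highest median percentile, from 45988427 to 45989454 in an exon of RTN2, ranged from 13.8 to 73.5 in wild type and from 28.5 to 79.0 in homozygous libraries. It was missing from the strong peaks of heterozygous replicate 3. The whole locus had 9, 7 and 11 strong peaks in the wild type, 10, 9 and 7 in the heterozygous line and 10, 12 and 11 in the homozygous line.

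FOSL1, which encodes FRA-1, did not rise with the homozygous genotype at its own promoter. The locus, on chromosome 11 from 65659520 to 65668044 with its flanks, had 10, 9 and 7 strong peaks in the wild type, 7, 6 and 8 in the heterozygous line and 9, 7 and 9 in the homozygous line. The promoter region, from 65667586 to 65668330, had percentiles of 76.8, 41.3 and 40.7 in the wild type, 23.8, 37 and 17.6 in the heterozygous line and 4.57, 43.6 and 38.0 in the homozygous line. Heterozygous libraries were all below wild type libraries there, and homozygous libraries overlapped both. A region inside the gene, from 65666653 to 65667152, which holds the AP-1 motif printed above, was a strong peak only in heterozygous replicate 3, at 24.2. All 9 full lists held a peak there.

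Other genes' promoters made up 7 of the 11 FOSL1 regions. The promoter of CCDC85B, from 65657729 to 65658594, had percentiles of 57.1 and 47.1 in wild type replicates 1 and 2 and of 77.5, 53.1 and 55.7 in homozygous libraries. It was missing from the strong peaks of wild type replicate 3 and of every heterozygous library. The promoter of DRAP1, from 65685987 to 65687498, ranked between 48.9 and 62.6 in the wild type, between 36.5 and 61.5 in the heterozygous line and between 80.3 and 86.5 in the homozygous line, with no overlap. Both distal regions near FOSL1 were missing from most libraries, so none is described as its strongest.

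FOSL2, which encodes FRA-2, ranked lower at its promoter in homozygous than in heterozygous libraries. The region, on chromosome 2 from 28614395 to 28616525, had percentiles of 76.0, 74.1 and 46.5 in the wild type, 87.7, 97.5 and 62.5 in the heterozygous line and 37.6, 57.9 and 50.7 in the homozygous line. Homozygous and wild type libraries overlapped through wild type replicate 3. The strongest distal region, 36641 bp upstream of the gene from 28578034 to 28579314, was at 66.9, 67.4 and 65.2 in the wild type, 60.3, 39.1 and 51.0 in the heterozygous line and 33.2, 60 and 68.0 in the homozygous line. Heterozygous libraries were below wild type there without overlap, and homozygous libraries overlapped both. The locus, from 28615315 to 28640184 with its flanks, had 4 strong peaks in each wild type library, 4, 3 and 3 in heterozygous and 3, 4 and 7 in homozygous libraries.

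Among the JUN genes, JUN had a strong promoter in every library, and it ranked lower in homozygous than in heterozygous cells. The region, on chromosome 1 from 59248767 to 59251189, had percentiles of 97.8, 95.8 and 89.8 in the wild type, 93.7, 93.1 and 97.5 in the heterozygous line and 92.5, 88.3 and 82.4 in the homozygous line. Homozygous libraries lay below all heterozygous libraries and overlapped wild type. A distal region 31882 bp upstream, from 59280554 to 59282650, was at 64.7, 74.5 and 78.9 in the wild type, 80.3, 63.7 and 93.3 in the heterozygous line and 69.8 to 87.1 in the homozygous line, with overlap between all genotypes. The locus had 3, 4 and 5 strong peaks in the wild type, 7, 3 and 7 in the heterozygous line and 4, 4 and 5 in the homozygous line.

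JUNB had more strong peaks around it in homozygous cells, though not at its own promoter. The locus, on chromosome 19 from 12902300 to 12904129 with its flanks, had 2, 4 and 4 strong peaks in the wild type, 3, 3 and 2 in the heterozygous line and 7, 5 and 6 in the homozygous line. Every homozygous library was above the other 6 at this list length, but not with the 20000 strongest peaks or under the q limit. In the full lists it had 10, 13 and 17 peaks in the wild type, 15, 6 and 9 in the heterozygous line and 23, 21 and 27 in the homozygous line, again without overlap. Of its 10 regions, 4 were held by a single library and each of those was a homozygous library, so none of the 4 was replicated. Over all regions, 30.3% were held by a single library. Of all distal regions held by 1 library, 56.6% were in a homozygous library.

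The JUNB promoter itself, from 12901996 to 12902730, was a strong peak in wild type replicates 2 and 3, at 35.8 and 13.9, and in homozygous replicates 1 and 3, at 50 and 0.208. It was missing from the strong peaks of all heterozygous libraries, wild type replicate 1 and homozygous replicate 2. A region that separated the homozygous libraries from all others lay 15942 bp upstream at the promoter of HOOK2, a neighbouring gene, from 12885723 to 12886993. That region had percentiles of 97.0, 98.8 and 62.1 in homozygous libraries and of 32.0, 30.4 and 42.7 in wild type libraries. It was at 38.4 in heterozygous replicate 1 and missing from the strong peaks of heterozygous replicates 2 and 3. Fold enrichment there was 10.6, 11.7 and 6.23 in homozygous libraries, 5.35, 5.54 and 6.29 in wild type and 6.01, 4.05 and 3.38 in heterozygous libraries, so by this value homozygous replicate 3 fell within the wild type range. The distal region with the highest median, from 12951159 to 12952321 in MAST1, ranked from 58.6 to 77.7 in homozygous, from 3.20 to 31.9 in heterozygous and from 6.11 to 60.3 in wild type libraries, so homozygous and heterozygous libraries did not overlap.

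JUND, the JUN gene known for steady expression in many tissues, had an accessible promoter in all libraries. The region, on chromosome 19 from 18391669 to 18393506, had percentiles of 54.8, 70.1 and 80.7 in the wild type, 82.0, 85.3 and 59.6 in the heterozygous line and 90.0, 93.8 and 52.6 in the homozygous line, and the genotypes overlapped. The locus had 5, 6 and 5 strong peaks in the wild type, 3, 4 and 3 in the heterozygous line and 7, 6 and 6 in the homozygous line. Heterozygous libraries were thus the lowest without overlap, and homozygous replicates 2 and 3 equalled wild type replicate 2. A distal region 11008 bp upstream, from 18402297 to 18404582, was at 32.4, 42.9 and 25 in wild type libraries and missing from the strong peaks of every heterozygous library. It was at 12.0 and 35.1 in homozygous replicates 1 and 2 and missing in replicate 3, and all 9 full lists held a peak there. The distal region with the highest median, from 18438823 to 18439989, was at 65.8, 68.7 and 78.2 in the wild type, 71.0, 11.7 and 45.3 in the heterozygous line and 68.8, 55.9 and 86.4 in the homozygous line.

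**Figure D2:**
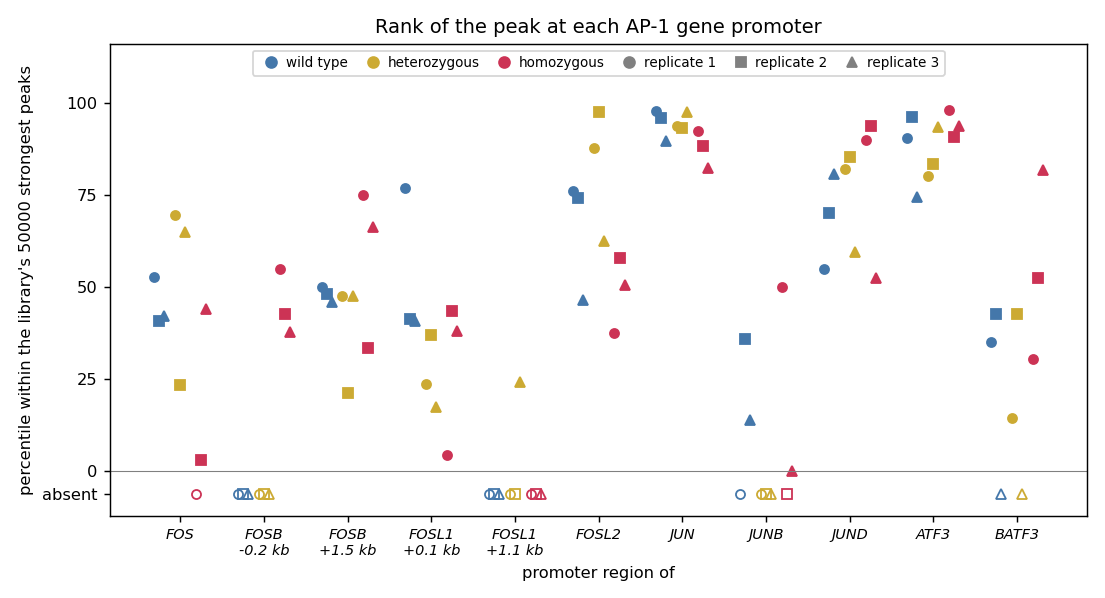
Percentile of the peak at each promoter region of an AP-1 gene within the 50000 strongest peaks of its library, with 1 symbol per library and open symbols on the lowest line for regions missing from those peaks. The upstream of the FOSB regions holds filled symbols for the homozygous libraries only, and BATF has no promoter region among the strong peaks. The kb values give the distance of the midpoint from the start of the gene where a gene has a pair of regions.

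ATF3, a stress-induced member that often acts as a repressor, also had a strong promoter in every library. The region, on chromosome 1 from 212781201 to 212783155, was at 90.6, 96.2 and 74.6 in the wild type, 80.3, 83.4 and 93.5 in the heterozygous line and 98.2, 90.7 and 93.8 in the homozygous line, with overlap. The locus had 8, 8 and 7 strong peaks in the wild type, 8, 9 and 9 in the heterozygous line and 11, 8 and 11 in the homozygous line, and homozygous replicate 2 equalled wild type replicates 1 and 2. A region 1793 bp inside ATF3, from 212740016 to 212740921, which holds an AP-1 motif, was missing from the strong peaks of wild type replicates 1 and 2. It was at 90.6 in wild type replicate 3, 90.7, 83.3 and 36.7 in heterozygous and 69.0, 74.0 and 93.0 in homozygous libraries, so the wild type libraries divided in the same way as their shared intervals. A distal region 6552 bp upstream, from 212731219 to 212733028, was at 78.9, 91.9 and 80.3 in the wild type, 76.3, 63.0 and 69.8 in the heterozygous line and 41.5, 84.2 and 79.2 in the homozygous line. Downstream of ATF3, a region from 212803081 to 212804057 was at 96.1 in heterozygous replicates 2 and 3 and at 67.9 in heterozygous replicate 1, above the 66.7, 65.2 and 46.7 of wild type.

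A distal region between ATF3 and BATF3 was present only in homozygous libraries. It lies on chromosome 1 from 212840509 to 212841186, 32334 bp downstream of the BATF3 start, and within 50 kb of both genes. Its percentiles were 27.9, 7.49 and 6.57 in homozygous replicates 1 to 3, near the lower end of the strong peaks, with fold enrichments of 4.35, 3.98 and 4.34. The full lists of the other 6 libraries held no peak there. Its AP-1 motif is the first of those printed above. A neighbouring region from 212838455 to 212839282 was strong in all 9 libraries, at 74.0, 74.6 and 88.5 in the wild type, 89.8, 67.3 and 40.6 in the heterozygous line and 92.1, 77.0 and 87.2 in the homozygous line.

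BATF and BATF3, which are best known in lymphocytes and dendritic cells, had no promoter peak and a variable one, respectively, among the strong peaks. No region lay at the BATF promoter, and the BATF locus had 2, 1 and 0 strong peaks in wild type, 0 in every heterozygous library and 3, 0 and 2 in homozygous libraries. One of its 4 regions, from 76043952 to 76044489 on chromosome 14, lay at a promoter of FLVCR2 and was held by wild type replicates 1 and 2 and homozygous replicate 1. The BATF3 promoter, from 212872237 to 212873467, was at 35.2 and 42.6 in wild type replicates 1 and 2 and missing from the strong peaks of wild type replicate 3. It was at 14.5 and 42.6 in heterozygous replicates 1 and 2, missing in heterozygous replicate 3, and at 30.6, 52.5 and 81.8 in homozygous libraries. The BATF3 locus had 5, 5 and 1 strong peaks in the wild type, 3, 6 and 3 in the heterozygous line and 8, 7 and 4 in the homozygous line, with overlap.

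**Figure D3:**
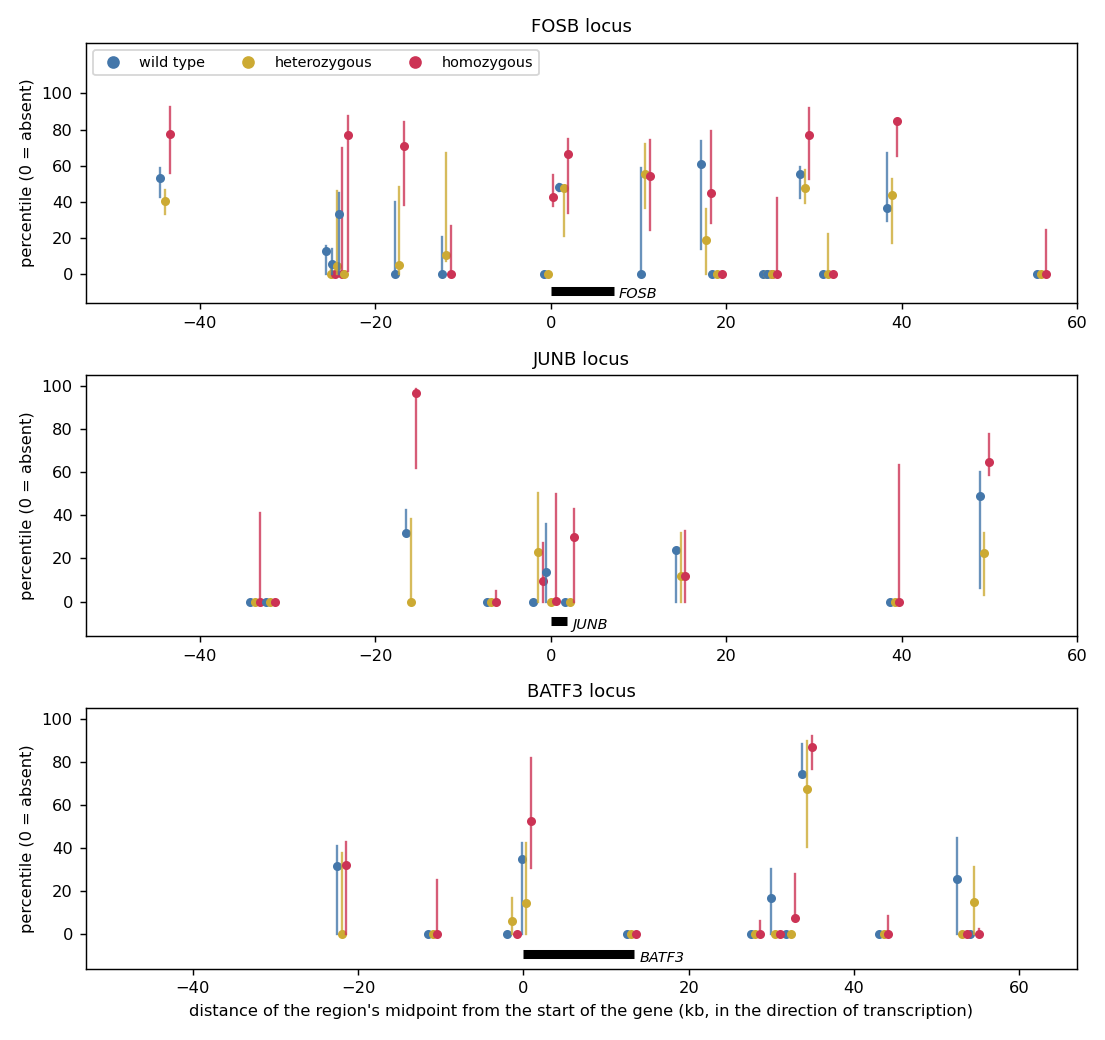
Percentiles of every region at the FOSB, JUNB and BATF3 loci against distance from the start of the gene in kb, with the genotypes side by side, points at the median and lines from the lowest to the highest of 3 libraries (0 for a region missing from the strong peaks). At FOSB the promoter region just upstream of the start shows only a homozygous line above 0, and at JUNB the HOOK2 promoter, upstream of the start, shows a homozygous line from 62.1 to 98.8 above the others.

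Few of the family's regions separated genotypes by presence. Of 88 regions held by a homozygous or wild type library, 2 were in all 3 homozygous and in 0 of the wild type libraries, those of the FOSB promoter and between ATF3 and BATF3. That share, 2.27%, is set against 2.7% of all 95310 regions (6.16% in either direction) and 3.77% of those on chromosome 19. None was present only in wild type libraries (3.46% of all regions), but with full lists 3 of 10 separating regions were, and under the q limit so was the 1 separating region. Without wild type replicate 3 the count in both directions was 8, of which 5 were in homozygous libraries only, and without homozygous replicate 1 or 3 it was 4. Fewer libraries make the rule easier to meet. No share over all regions was computed with libraries left out, with full lists or under the q limit. Both regions were also specific to the homozygous libraries against the other 6, 2 of 93 (2.15%), against 1.8% of all regions and 2.43% of those on chromosome 19, and 0 were missing only from them (1.56%, and 3.36% for both directions). That count was 4 without homozygous replicate 1. No family region was present only in wild type (0.124% of all regions) or missing only from it (0.0331%, and 0.157% for both), and none was present only in heterozygous libraries (0.154%) or missing only from them (0.0963%, and 0.25% for both).

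Against heterozygous libraries, 4 of 89 regions (4.49%) were present only in homozygous libraries, adding the CCDC85B promoter and the region within ERCC1. The share over all regions was 3.16% (6.57% in either direction) and on chromosome 19 it was 3.81%, and none was present only in heterozygous libraries (3.41%). Without homozygous replicate 3 the count in both directions was 7. In the comparison of the heterozygous line with wild type, 1 of 66 regions (1.52%), the JUND region 11008 bp upstream, was present only in wild type (0.504% of all regions, and 0.897% in either direction), and none only in heterozygous libraries (0.393%). With lists that share intervals counted once it was 6. It was 10 when wild type replicate 3 was left out, 5 when heterozygous replicate 1 was, and 2 when wild type replicate 1 or heterozygous replicate 2 or 3 was. Wild type replicate 3 and heterozygous replicate 1 share 46.0% of the shorter list's intervals. A region that both hold cannot separate heterozygous from wild type libraries, at the family's genes or over all regions. The part of this sharing in the counts was not tested. The counts with libraries left out have no share over all regions beside them.

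By percentile, with a missing region at 0, 4 of 88 regions (4.55%) were higher in every homozygous than in every wild type library: the FOSB promoter, the region between ATF3 and BATF3, the HOOK2 promoter and the DRAP1 promoter. The share over all regions was 7.38%, and it was 20.6% on chromosome 19, where 2 of 35 family regions (5.71%) did so. None was lower in homozygous libraries, against 9.32% of all regions and 2.97% on chromosome 19. The same 4 were above all 6 other libraries (4.81% of all regions, 15.5% on chromosome 19) and 0 of 93 were below them (4.44% and 1.13%). No family region set all wild type libraries above (1.15%) or below (0.412%) the other 6, or all heterozygous libraries above (1.34%) or below (0.616%). Homozygous libraries exceeded heterozygous libraries at 10 of 89 regions (11.2%), against 7.52% of all regions and 21.4% on chromosome 19, and 7 of the 10 lay on chromosome 19, among them the promoters of ERCC1, VASP and LSM4. They were lower at 2, the promoters of JUN and FOSL2, against 8.98% (2.84% on chromosome 19). Heterozygous libraries were above wild type at 1 of 66 regions (1.52%), downstream of ATF3, and below at 4 (6.06%), the FOSL1 promoter and distal regions of ATF3, FOSL2 and JUND, against 3.67% of all regions in each direction.

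**Figure D4:**
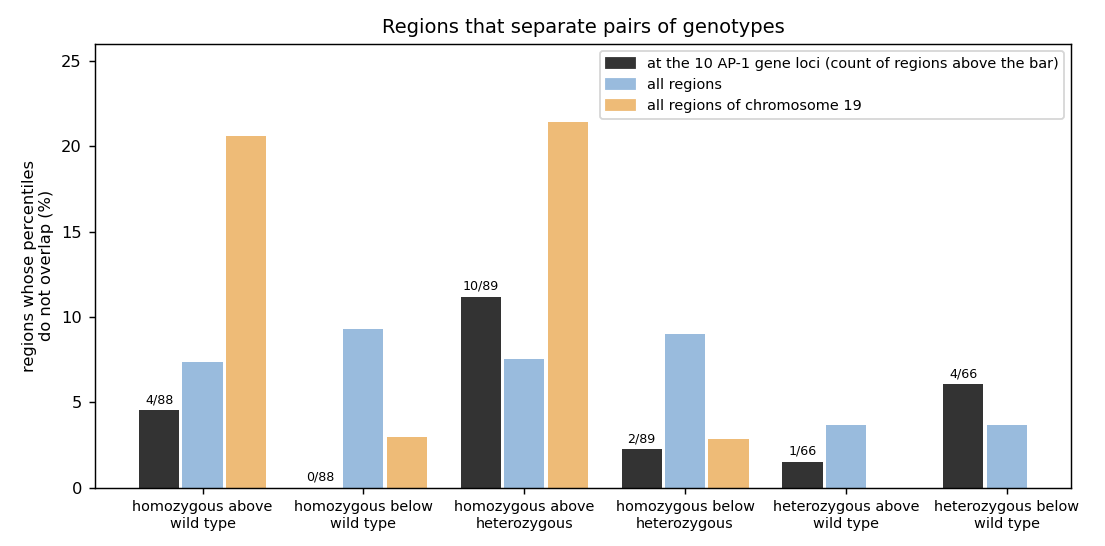
Percentage of regions in which all 3 libraries of one genotype have a higher percentile than all 3 of another, for regions at the 10 AP-1 loci (dark bars, with counts), all regions (blue) and, for pairs with the homozygous line, all regions of chromosome 19 (orange). The family's bars lie below the all-region bars in 4 of the 6 comparisons, and chromosome 19 stands at 20.6% and 21.4% for higher homozygous percentiles.

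A larger share of the family's promoter regions than of its distal regions was held by every library. Of 11 regions within 1 kb of a family gene's start site, 6 were strong in all 9 libraries and 1 in a single library. Of the 22 regions at other genes' promoters, 8 (36.4%) were in all 9 and 7 (31.8%) in a single library. Of 60 distal regions, 10 were in all 9 and 19 in a single library, and 15 of those 19 (78.9%) were in a homozygous library, against 56.6% of all 30690 distal regions held by 1 library. Over all regions near a start site of any gene, 56.2% were in all 9 libraries and 9.91% in 1. Over all distal regions, 12.1% were in all 9. Just inside the 50 kb limit lay a region 48762 bp from FOSB held by homozygous replicate 3 at 24.3, and just outside it lay one 51312 bp from ATF3 held by heterozygous replicate 2 at 16.3.

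The AP-1 motif itself was near its overall frequency at these loci, a difference that was not tested. TGACTCA, on either strand within 500 bp around the midpoint, was found in 19 of 93 family regions (20.4%) and in 17.4% of all regions. Within 200 bp the shares were 12.9% and 10.8%. Of the 19, strong peaks covered 6, 7 and 7 in the wild type, 8, 8 and 8 in the heterozygous line and 7, 9 and 13 in the homozygous line, so homozygous replicate 1 was within the range of the others. Only 2 of the 19 were held by all 9 libraries, against 22 of the 74 regions without the motif. Distal regions, which were less often held by every library, made up 15 of the 19 and 45 of the 74. The CRE TGACGTCA lay in 4 family regions (4.3%), those of the FOSB and JUND promoters, a distal region of FOSL2 and one in ERCC1, and in 0.777% of all regions. CArG boxes lay in 7 (7.53%), among them the FOS and FOSB promoters, and in 2.98% of all regions. The GATA motif AGATAA, bound by the erythroid GATA factors, lay in 13 (14.0%), against 29.9% of all regions. The family's regions were richer in promoters: of the 93, 11 lay at own and 22 at other promoters, whereas 13.7% of all regions lay near a start site. The motif shares were not matched for this, so the differences cannot be read as particular to the AP-1 loci. CRE and AP-1 letters differ by 1 inserted base, so a single position cannot match both. In the 300 bases upstream of the annotated principal start, 0 of the 10 family genes had an AP-1 motif, 1 a CRE, 1 a CArG box and 2 a GATA motif, against 3.61%, 2.58%, 1.41% and 8.27% of 19748 promoters. Of the 19 regions with an AP-1 motif, 2 nevertheless lay at own promoters, both of FOSL1. In the FOSL1 promoter region held by all 9 libraries, the motif lies across the principal start and was therefore not counted upstream.

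Genes that work with AP-1 were measured in the same way. Among 21 related leucine zipper genes, MAFG and BACH2 had more strong peaks in all homozygous than in all wild type libraries, and 0 had fewer. BACH2, a repressor that binds AP-1-like sites, had 18, 20 and 18 in the wild type, 21, 20 and 20 in the heterozygous line and 23, 28 and 27 in the homozygous line. Among 19 upstream kinases and factors, MAP2K2 on chromosome 19 was higher and MAPK10, a neuronal JUN kinase, was lower, with 11, 14 and 11 in wild type and 5, 6 and 4 in homozygous libraries. Among 21 target genes, 5 were higher and 2 were lower. The higher ones included the matrix metalloproteinases MMP1, MMP10 and MMP13, whose loci are neighbours on chromosome 11 and can share peaks, and the protease gene PLAU. MMP1 had 6, 4 and 2 in the wild type, 2, 5 and 4 in the heterozygous line and 8, 8 and 7 in the homozygous line. The cytokine gene IL6 and the matrix gene FN1 were lower. These counts are to be read beside the 9.65% and 7.3% of all loci that were higher or lower.

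Over the 9 libraries, the summed number of strong peaks at the AP-1 loci was most like that at SH3KBP1 (Pearson r = 0.97), MET (r = 0.962) and KCNJ6 (r = 0.96), among 911 other gene loci with a mean of at least 10 strong peaks. MET, a receptor tyrosine kinase, had 10, 10 and 8 in the wild type, 10, 9 and 8 in the heterozygous line and 17, 11 and 18 in the homozygous line. These correlations are a description over libraries that share intervals and genotype.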

How the data were processed

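The 9 deposited peak lists, 1 per library, were used as the authors made them. Per the submitters' processing notes, cutadapt, Bowtie2 2.2.9, Picard and MACS2 2.1.0 were used with hg19 or GRCh37. Settings and any Tn5 shift are not given in the sources used here. Each list holds, as the authors deposited it, a fold enrichment (a linear ratio), a −log10 p-value and a −log10 q-value per peak. Most intervals are 500 bp windows around 1 summit, and between 17.2% and 19.2% per list join several with averaged values, which can lower the rank of a broad site. No interval ran past a GRCh37 chromosome end (0 cases).

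Peaks on chromosomes 1 to 22 and X were ranked by −log10 p, and the 50000 strongest per library were merged at an overlap of at least 1 bp. Genes came from GENCODE release 44 on GRCh37. A promoter site has its centre within 1 kb of the start of a protein-coding transcript. Ranks were compared as descriptions, since no counts were analysed here. With 3 libraries per genotype the smallest two-sided exact permutation p is 0.1, so no test is reported. Counting was tested on simulated lists (200 of 200 planted regions recovered among 20000). Planted regions lay apart and were fully present or absent by genotype, so this checks the code and not borderline regions. Members, gene lists and rules were chosen with earlier results of these data known. Named regions are the promoters, the distal region with the highest median percentile per gene and all regions that separated genotypes. The DRAP1, HOOK2, FLVCR2 and further ATF3 and FOSL1 regions were added after their values were seen, as was the percentile rule. Python 3.11.15, numpy 2.4.6 and pandas 2.3.3 were used. Some members of the marker and target gene lists are counted but not reported by name here.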

Additional observations from a re-analysis of the deposited data

How the results depend on the processing

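No paired analysis was possible because no label ties libraries of the same number across genotypes, and the results come from no test. The differences in summed strong peaks were 11.7 (homozygous minus wild type), 15.0 (homozygous minus heterozygous) and −3.33 (heterozygous minus wild type). In this order they were 7.67, 8.0 and −0.333 with the 20000 strongest peaks, 37, 52.0 and −15.0 with full lists, −1.67, 6.0 and −7.67 with a −log10 q of at least 5, 7.67, 5.67 and 2.0 with a 10 kb window, and 19.3, 26 and −6.67 with 100 kb. The differences from homozygous libraries were 19 and 22.3 with the 100000 strongest. Leaving out single libraries gave 9.5 to 14.5, 12.8 to 17.8 and −5.0 to −2.0. Among these settings, homozygous minus wild type changed sign under the q limit alone (libraries also overlapped with full lists) and heterozygous minus wild type with the 10 kb window alone, and the cause was not tested.

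Regions separating genotypes by presence numbered 2 (homozygous and wild type), 4 (homozygous and heterozygous), 1 (heterozygous and wild type) and 2 (homozygous and all others). In this order they were 9.0, 12.0 (3 only in heterozygous libraries), 2.0 and 7.0 with the 100000 strongest, 10.0, 11.0, 0.0 and 6.0 with full lists (of which 3, 3, 0 and 2 were missing from the homozygous line), 1.0 (present only in wild type), 1.0, 0.0 and 0.0 with the q limit, 1.0, 2.0, 0.0 and 1.0 with 10 kb, 6.0, 7.0, 2.0 and 5.0 with 100 kb, and 1.0, 1.0, 0.0 and 1.0 when absence meant no peak in the full list. With the 20000 strongest those counts, other than homozygous and heterozygous, were 1.0, 0.0 and 1.0. With lists that share intervals counted once, heterozygous and wild type differed at 6.0. By percentiles that do not overlap, a rule chosen after seeing the data and not recomputed without single libraries, they were 4.0, 12.0, 5.0 and 4.0. Leaving out single libraries, which makes the presence rule easier to meet, gave 2.0 to 8.0, 4.0 to 7.0, 1.0 to 10.0 and 2.0 to 4.0. No share over all regions was computed for other list lengths, the q limit, absence from the full list or with libraries left out. Those counts are thus no result about the family. Over 17 settings, the differences of the 10 single genes (170 values per pair of genotypes) changed sign in 20 values for homozygous minus wild type (FOS, FOSL1, FOSL2, JUN, JUND and BATF3), in 6 for homozygous minus heterozygous and in 14 for heterozygous minus wild type. Leaving out a library of the genotype outside a pair cannot change that pair's values, so not all 170 could change sign. Settings and pairs beyond those planned for single genes were added after seeing the data. With start sites taken within 2 kb, the regions divided into 16 at own promoters, 25 at other promoters and 52 distal, from 11, 22 and 60. The planned position from the summit column was not run, because that column does not count from the interval start, and the first summit was used instead. Read depth is unknown, so a peak missing from a list was not called there, which is not absence of accessibility.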
